A study of Homo sapiens with 19 samples.

Results

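The miR-26 family was followed through cells and culture medium of Caco-2, an established human colorectal epithelial line. Its members are miR-26a-5p and miR-26b-5p, chosen by name, which are 2 of the 1043 mature miRNAs listed across the libraries. Both were listed in all 18 libraries used. Per the labels, all cells are of wild-type genotype, were grown with 20% fetal bovine serum, and spent 24 h in medium without serum and antibiotics once they had reached 80% confluence. The groups are S100, the supernatant left after a 100000 xg spin (3 libraries used), P100, the pellet of that spin (4), P40, the pellet of the preceding 40000 xg spin (4), total extracellular RNA (exRNA) of medium cleared of debris (4), and cell lysate (3). RNA of S100 and of total exRNA was precipitated before Trizol, whereas RNA of P100, P40 and cells went into Trizol directly. Fraction and RNA preparation therefore cannot be told apart in comparisons across that line. All libraries come from 1 cell line, and no label calls the replicates separate cultures. The p-values thus cover the spread between these libraries alone, which may be technical.

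MicroRNAs are short RNAs that guide Argonaute proteins to messenger RNAs that pair with the seed, bases 2 to 8 from the 5′ end. miR-26a and miR-26b are encoded within genes of small C-terminal domain phosphatases, and together with these hosts they are known to hold back the cell cycle. The family is raised in differentiated tissue and lowered in many carcinomas. Its known targets include EZH2, a histone methyltransferase of the Polycomb complex. Outside cells, miRNAs are found in vesicles and large particles, which pellet in fast spins, and bound to soluble proteins, which stay in the supernatant.

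The mature sequences are shown because both members, and 2 further human miRNAs, carry the same seed, here in capitals. Sequences are from RefSeq on GRCh38.p14 and run 5′ to 3′.
hsa-miR-26a-5p: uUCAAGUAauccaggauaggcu
hsa-miR-26b-5p: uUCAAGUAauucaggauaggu
hsa-miR-1297: uUCAAGUAauucaggug
hsa-miR-4465: cUCAAGUAgucugaccagggga

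Of 2370 mature names in that table, these 4 carry the seed. miR-1297 and miR-4465 had no count in any of the 18 libraries, so the counted miRNAs with this seed were miR-26a-5p and miR-26b-5p. Printed again with their differences in capitals, the members are 22 and 21 bases long and match at 19 of 21 compared positions.
hsa-miR-26a-5p: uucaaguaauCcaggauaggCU
hsa-miR-26b-5p: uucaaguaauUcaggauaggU

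Counted from the 5′ end, with the base of miR-26a-5p first, the substitutions are C11U and C21U. How reads that match both were assigned is not given in the sources used here, so some reads may have been exchanged between the members. miR-26a-5p can come from MIR26A1 (chr3:37969404-37969480, plus strand) or from MIR26A2 (chr12:57824609-57824692, minus strand), and its counts do not tell these apart. In GENCODE 29, on the same GRCh38 coordinates, MIR26A1 lies within CTDSPL and MIR26A2 within CTDSP2, each on the host's strand. MIR26B (chr2:218402646-218402722, plus strand) lies within CTDSP1. None of the 5, 6 and 11 transcripts of these hosts that span the hairpins has an exon over them, so all 3 hairpins are intronic.

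The opposite strands of the same hairpins were almost absent. Over the 18 libraries the hairpins MIR26A1 and MIR26A2 gave 9067 counts of the 5p arm and 12 of the 3p arms. Of these, miR-26a-1-3p had 7 counts in 4 libraries and miR-26a-2-3p had 5 counts in 2 libraries. MIR26B gave 679 counts of miR-26b-5p and 5 of miR-26b-3p. The 3 S100 libraries, which are the deepest, held all counts of miR-26b-3p. No 3p arm passed the filter on low counts, and none was tested.

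Depth sets the precision of what follows. S100 libraries held 198878 to 225290 miRNA counts, P100 libraries 10017 to 27027, P40 libraries 10490 to 26096, total exRNA libraries 34427 to 61622 and lysate libraries 37453 to 157051. A further S100 library, replicate 1, held 48 counts, 2 of them miR-26a-5p, and was left out. The 8 intestinal epithelial markers miR-200a-3p, miR-200b-3p, miR-200c-3p, miR-141-3p, miR-429, miR-192-5p, miR-194-5p and miR-215-5p were detected in every group, with a summed share of 2.59% to 2.95% in S100, 2.97% to 4.37% in P100, 3.66% to 4.27% in P40, 4.45% to 5.40% in total exRNA and 4.31% to 5.56% in lysate. Of 8 blood cell markers, 5 were detected in S100, summing to 0.00799% to 0.0151%, and 5 in P100 (0.140% to 0.283%), 5 in P40 (0.273% to 0.343%), 6 in total exRNA (0.0900% to 0.232%) and 4 in lysate (0.0401% to 0.0439%). The erythrocyte marker miR-144-5p was at 0 in every group. In lysate the erythrocyte markers miR-451a and miR-144-3p and the myeloid marker miR-223-3p were also at 0. The other way round, miR-142-5p was at 0 in every medium group and was detected in lysate. miR-142-3p was at 0 in P100 and P40, and miR-150-5p in S100. Markers of mesenchymal, neural, liver and muscle cells summed to at most 0.189% of any library for any of these lists. The part of other cell types in the results below was not tested.

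miR-26a-5p was an abundant miRNA of cells and medium. It made up 0.405%, 0.384% and 0.469% of counts in S100 replicates 2, 3 and 4. P100 replicates 1 to 4 had 0.659%, 0.344%, 0.455% and 0.779%. The S100 libraries lay close together and the P100 libraries spread on both sides of them. P40 replicates 1 to 4 had 0.694%, 0.762%, 1.38% and 0.782%. Total exRNA replicates 1 to 4 had 1.27%, 1.46%, 1.32% and 1.43%, and lysate replicates 1 to 3 had 0.774%, 0.951% and 1.48%. Total exRNA was thus uniformly high and S100 uniformly low, while P40 replicate 3 and lysate replicate 3 stood well above the other libraries of their groups. By mean share miR-26a-5p ranked 34 among miRNAs of S100, 29 in P100, 23 in P40, 16 in total exRNA and 19 in lysate. Exact 95% binomial intervals, which cover counting error only, were 0.358% to 0.410% for the lowest S100 library and 1.30% to 1.56% for total exRNA replicate 4.

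miR-26b-5p was far scarcer. S100 replicates 2, 3 and 4 held 100, 111 and 145 counts, or 0.0503%, 0.0493% and 0.0664%. P100 replicates 1 to 4 held 3, 6, 10 and 4 counts, or 0.0166%, 0.0258%, 0.0370% and 0.0399%, and P40 replicates 1 to 4 held 4, 8, 38 and 10, or 0.0278%, 0.0420%, 0.146% and 0.0953%. Total exRNA replicates 1 to 4 held 29, 58, 35 and 21 counts, or 0.0755%, 0.0941%, 0.0712% and 0.0610%, and lysate replicates 1 to 3 held 6, 67 and 24, or 0.0160%, 0.0427% and 0.0364%. All total exRNA libraries lay above all P100 and lysate libraries, and P40 libraries ran from under the S100 libraries to the highest share of all. With 3 to 10 counts in each P100 library, the exact 95% interval of P100 replicate 1 ran over 0.00343% to 0.0486%, so counting error alone is large there.

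**Figure D1:**
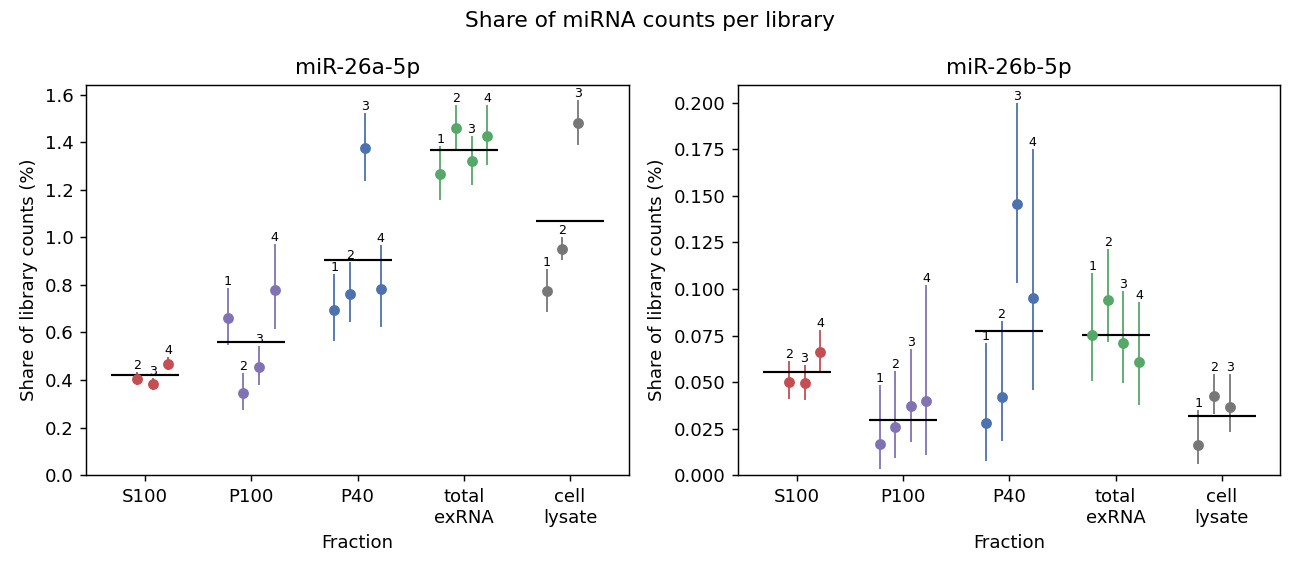
Share of all miRNA counts of a library (%, linear axes from 0) taken by miR-26a-5p (left) and miR-26b-5p (right) in the 5 groups. Each point is a library with its replicate number and exact 95% binomial interval, and the black line is the group mean. miR-26a-5p lies between 1.27% and 1.46% in total exRNA and between 0.384% and 0.469% in S100, and the widest miR-26b-5p intervals are those of P40 replicates 3 and 4 and P100 replicate 4.

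For the comparisons, library sizes were scaled by edgeR's trimmed mean of M values (TMM), and levels are given as CPM, the count on a common scale of library size. One edgeR quasi-likelihood model was fitted to the 227 miRNAs that passed the filter on low counts, which both members did, and p was adjusted by Benjamini-Hochberg over those 227. A miRNA is called at an adjusted p below 0.05. A higher or lower value means a larger or smaller scaled share of the library: less of a miRNA in a fraction and more of the others cannot be told apart.

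miR-26a-5p ranked from low to high as S100 (4312 ± 897 CPM, SD, n = 3), P100 (5871 ± 1946, n = 4), P40 (8148 ± 2817, n = 4), cell lysate (12150 ± 2973, n = 3) and total exRNA (12738 ± 725, n = 4). No neighbouring pair of this order differed past the threshold. Of 10 pairwise comparisons, 5 were called in edgeR, each with the first-named group, S100 or P100, the lower. The sign depends on which group is named first, so the 9 negative log2 fold changes of 10 only repeat the order above. Scaled values of the 2 groups did not overlap in any called comparison, as given below with the shares of all miRNAs. The direction within each shared batch number was therefore fixed and adds nothing. The comparisons share libraries and are not independent of each other.

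The S100 comparisons ask whether the medium left after both spins held the same share of miR-26a-5p as the cells, the unfractionated medium or the pellets. Against cell lysate, miR-26a-5p had 4086, 3550 and 5301 CPM in S100 replicates 2, 3 and 4, and 9992, 10917 and 15541 CPM in lysate replicates 1 to 3. The groups did not overlap. S100 was lower, with a log2 fold change of -1.49 ± 0.34 (SE, edgeR quasi-likelihood adjusted p = 0.000514). In this comparison 62.1% of all tested miRNAs were called, 30.0% were called lower and 30.8% were lower without overlap, so a call of this kind was common. Of the tested miRNAs, 27.3% had a fold change as low as miR-26a-5p or lower. The log2 fold change was -0.92 without lysate replicate 3, still called (adjusted p = 0.0323), where the fold changes of all miRNAs shifted upward by a median of 0.31. With no filter on low counts it was -0.83, not called (adjusted p = 0.159), with a median shift of 0.69.

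Against total exRNA, whose RNA was precipitated like that of S100, miR-26a-5p was again lower in S100. Total exRNA replicates 1 to 4 had 12542, 13135, 11813 and 13462 CPM, all more than the highest S100 library with 5301. The log2 fold change was -1.56 ± 0.32 (SE, adjusted p = 0.00025 in edgeR), a fold of 0.339. It was called in every alternative run, with log2 fold changes between -1.79 and -1.11. Within the 3 batch numbers that both groups share, S100 was lower by 1.34 to 1.73 on the log2 CPM scale. The lack of overlap fixes that direction. Here 63.4% of all tested miRNAs were called, 33.9% were called lower and 30.0% were lower without overlap.

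S100 was also lower than P40, whose replicates had 6236, 7695, 12258 and 6402 CPM, with a log2 fold change of -0.92 ± 0.32 (SE, edgeR adjusted p = 0.0171) and groups that did not overlap. Here 52.9% of tested miRNAs were called, 27.8% were called lower and 25.6% were lower without overlap. This call was lost in several alternatives, most of which also shifted all miRNAs upward. The log2 fold change was -0.24 without P40 replicate 3 (adjusted p = 0.558), and the call was also lost without P40 replicate 4 (-0.71) and without S100 replicate 2 (-0.56), 3 (-0.51) or 4 (-0.72). In these settings the median log2 fold change of all miRNAs shifted by 0.34 (P40 replicate 3), 0.27 (P40 replicate 4) and 0.32, 0.37 and 0.32 (S100 replicates 2, 3 and 4), so relative to that shift the change was small in all but the first. It was also lost with relative log expression scaling (-0.64, adjusted p = 0.0848), in DESeq2 (-0.65, adjusted p = 0.0641) and with no low-count filter (-0.29, adjusted p = 0.797).

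Between S100 and P100, the products of the same last spin, miR-26a-5p did not pass the test (-0.44 ± 0.32, SE, edgeR adjusted p = 0.239), in a comparison with 59.9% of tested miRNAs called. P100 libraries had 6953, 3400, 5318 and 7814 CPM. The S100 libraries lay within that spread, and S100 was lower in 2 of 3 batch numbers. The log2 fold change was -0.11 without S100 replicate 3, -0.15 without S100 replicate 2 and -0.29 without P100 replicate 4, where the first 2 settings shifted all miRNAs by a median of 0.26 and 0.24.

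The P100 comparisons ask how the last pellet, known to hold small vesicles and other particles, differs from the cells, the unfractionated medium and P40. miR-26a-5p was lower in P100 than in total exRNA, at -1.13 ± 0.29 on the log2 scale (SE, edgeR adjusted p = 0.00578) or a fold of 0.458. The highest P100 library had 7814 CPM and the lowest total exRNA library 11813 CPM. The call held in every alternative run, with log2 fold changes of -1.35 to -0.94. As the groups did not overlap, P100 was necessarily lower in all 4 batch numbers. Of all tested miRNAs, 27.8% were called, 14.5% were called lower and 17.6% were lower without overlap. P100 RNA went into Trizol directly and total exRNA was precipitated first, so fraction and preparation cannot be told apart.

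Against lysate, prepared the same way, miR-26a-5p was lower in P100, at -1.06 ± 0.31 (SE, edgeR adjusted p = 0.0108) on the log2 scale. Of tested miRNAs 37.4% were called, 20.7% were called lower and 22.9% were lower without overlap. Scaled values did not overlap, with at most 7814 CPM in P100 and at least 9992 CPM in lysate, but unscaled shares did, by the 0.779% of P100 replicate 4 and the 0.774% of lysate replicate 1. The call was lost without lysate replicate 3 (-0.69, adjusted p = 0.129), at equal depth (-0.69, adjusted p = 0.147) and narrowly with no low-count filter (-1.07, adjusted p = 0.0532). P100 and P40 did not differ past the threshold (-0.49 ± 0.29, SE, edgeR adjusted p = 0.322), where 4.85% of tested miRNAs were called, and the value was -0.09 without P40 replicate 3 and -0.28 without P100 replicate 2.

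By mean level, P40 and total exRNA were the medium groups nearest to the cells. Against lysate, P40 had a log2 fold change of -0.57 ± 0.31 (SE, edgeR adjusted p = 0.178), with 26.9% of tested miRNAs called. P40 against total exRNA gave -0.64 ± 0.29 (adjusted p = 0.152), with 11.5% called. Without P40 replicate 3, the library with 12258 CPM, both passed, at -0.86 (adjusted p = 0.0418) against lysate and -0.99 (adjusted p = 0.0372) against total exRNA, and DESeq2 called the comparison with total exRNA on all libraries (-0.75, adjusted p = 0.0472). Total exRNA against lysate gave 0.07 ± 0.31 (SE, edgeR adjusted p = 0.896) where 35.2% of tested miRNAs were called, and the sign turned without total exRNA replicate 2 or lysate replicate 2.

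**Figure D2:**
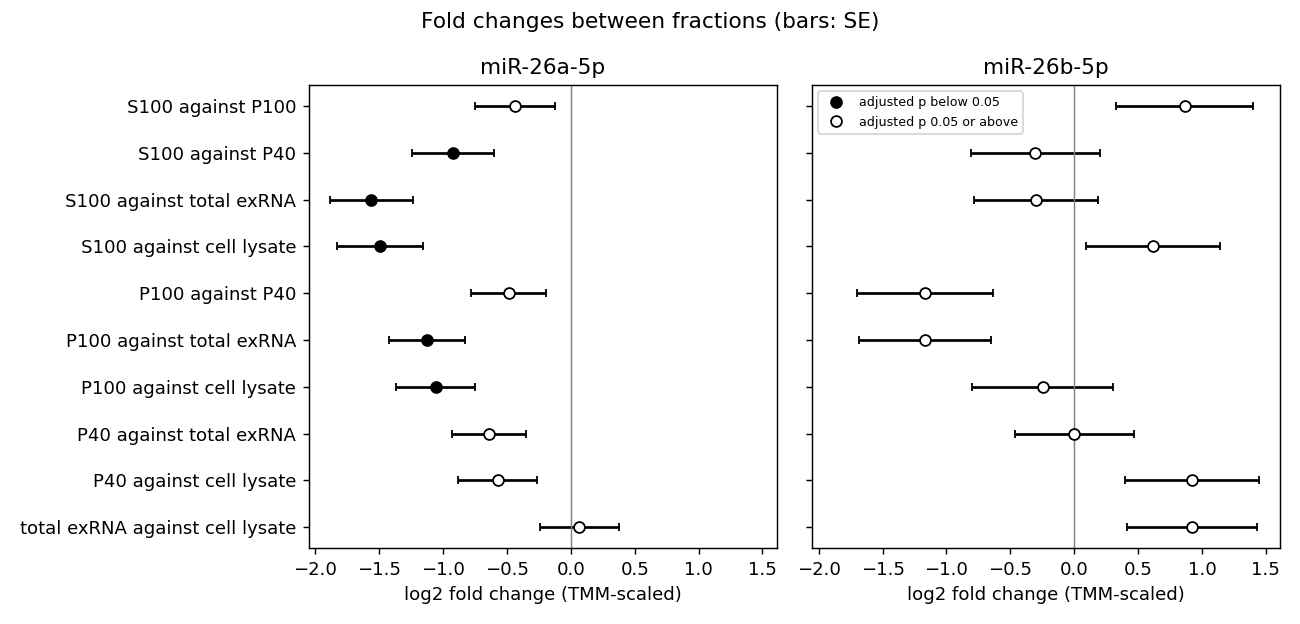
Log2 fold changes (TMM-scaled, first-named group over second) of miR-26a-5p (left) and miR-26b-5p (right) in the 10 comparisons. Points are edgeR estimates, bars are SE, and filled points have an adjusted p below 0.05. The 5 filled points are all miR-26a-5p in S100 or P100, from -1.56 to -0.92.

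miR-26b-5p was called in 0 of the 10 comparisons in edgeR, with 2 at an unadjusted p below 0.05 and 1 called in DESeq2. Its order from low to high was P100 (316 ± 121 CPM, SD, n = 4), cell lysate (359 ± 143, n = 3), S100 (571 ± 157, n = 3), P40 (688 ± 463, n = 4) and total exRNA (702 ± 120, n = 4). In S100, where miR-26a-5p was lower than in lysate, miR-26b-5p had 507, 456 and 751 CPM, against 207, 490 and 382 CPM in lysate. The groups overlapped and the log2 fold change was 0.62 ± 0.52 (SE, edgeR adjusted p = 0.326), or 0.75 to 1.17 with single libraries left out. Each of those settings also shifted all miRNAs upward, by a median of 0.31 to 0.40. S100 against total exRNA gave -0.30 ± 0.48 (adjusted p = 0.586) and S100 against P40 gave -0.30 ± 0.50 (adjusted p = 0.617), and neither has a settled sign. Both signs turned without S100 replicate 2 or 3, where all miRNAs shifted upward by a median of 0.31 to 0.37, and that of S100 against P40 also turned without P40 replicate 3 (0.69) or 4 (0.04), with a shift of 0.34 and 0.27.

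The pellets and the unfractionated medium set miR-26b-5p further apart, still short of the threshold. P100 had 175, 255, 432 and 401 CPM, all below the 747, 847, 637 and 576 CPM of total exRNA, at a log2 fold change of -1.17 ± 0.52 (SE, edgeR adjusted p = 0.0911). Of tested miRNAs, 27.8% were called in that comparison and 17.6% were lower without overlap. S100 lay above P100 in every library, at 0.87 ± 0.54 (adjusted p = 0.169), where 33.9% of tested miRNAs were higher without overlap. Fitted on those groups alone it passed (0.97, adjusted p = 0.0395). P100 against P40, whose replicates had 249, 425, 1298 and 781 CPM, gave -1.17 ± 0.53 (adjusted p = 0.212) and overlapped, and gave -0.45 (adjusted p = 0.667) without P40 replicate 3.

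Against lysate the values of miR-26b-5p were 0.92 ± 0.51 in total exRNA (SE, edgeR adjusted p = 0.176), 0.92 ± 0.52 in P40 (adjusted p = 0.199) and -0.25 ± 0.55 in P100 (adjusted p = 0.745). Total exRNA libraries all lay above the lysate libraries, as did 19.4% of tested miRNAs. DESeq2 called this comparison (1.158, adjusted p = 0.0475), where all miRNAs shifted upward by a median of 0.24. Without P40 replicate 3, P40 against lysate gave 0.34 (adjusted p = 0.743). P40 against total exRNA gave 0.00 ± 0.46 (adjusted p = 1) with P40 libraries on both sides of the total exRNA libraries.

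The ratio of miR-26a-5p to miR-26b-5p counts within a library needs no scaling between libraries. It was 8.06, 7.78 and 7.06 in S100 replicates 2, 3 and 4. P100 replicates 1 to 4 had ratios of 39.7, 13.3, 12.3 and 19.5, and P40 replicates 1 to 4 had 25.0, 18.1, 9.45 and 8.20. Total exRNA had 16.8, 15.5, 18.5 and 23.4, and lysate had 48.3, 22.3 and 40.7. S100 was the most uniform group, and its libraries held the most counts of miR-26b-5p, 100 to 145, beside 3 to 10 in P100. It had lower ratios than any library of another group. P40 replicate 4, with 10 counts of miR-26b-5p, came nearest, and with 0.5 added to each count it lay among the S100 libraries. How often ratios of other miRNA pairs set S100 apart was not tested. Lysate replicates 1 and 3, with 6 and 24 counts of miR-26b-5p, had higher ratios than any other library. Lysate replicate 2, with 67 counts of it, lay below total exRNA replicate 4, P40 replicate 1 and P100 replicate 1. As a share of the family, miR-26b-5p made up 11.0% to 12.4% in S100, 2.46% to 7.52% in P100, 3.85% to 10.9% in P40, 4.10% to 6.06% in total exRNA and 2.03% to 4.29% in lysate.

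**Figure D3:**
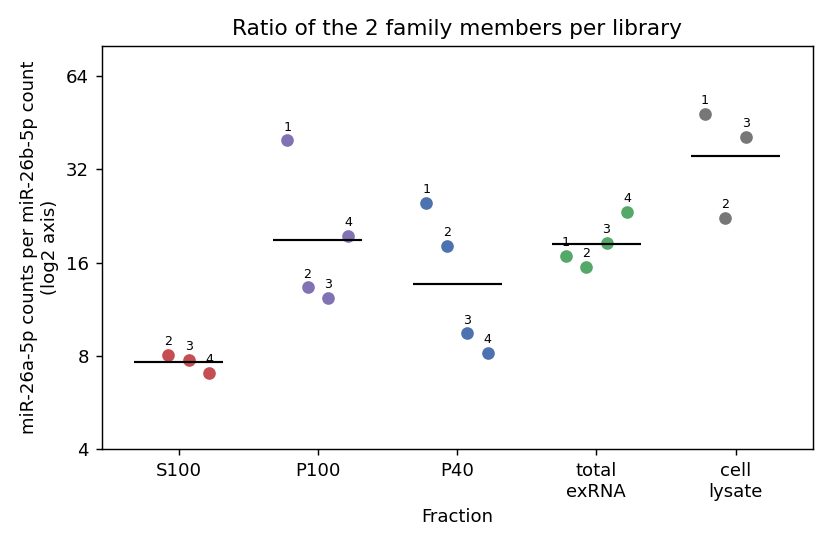
Counts of miR-26a-5p per count of miR-26b-5p in each library (log2 axis), by group, with replicate numbers. The black line is the geometric mean of a group. The S100 libraries lie between 7.06 and 8.06, under all others on this scale of plain ratios, and lysate libraries lie between 22.3 and 48.3.

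As log2 ratios (0.5 added to each count), S100 averaged 2.93 ± 0.10 and lysate 5.09 ± 0.54 (SD, n = 3 each), a difference of -2.16 (exact two-sided permutation p = 0.1, the smallest that 3 against 3 libraries allow). S100 averaged 2.93 and total exRNA 4.17 ± 0.25 (n = 4), a difference of -1.25 (exact permutation p = 0.0571, the smallest this design allows). The difference from P100 (4.10 ± 0.71, n = 4) was -1.18 (exact permutation p = 0.0571, again the smallest possible) and that from P40 (3.69 ± 0.71, n = 4) was -0.77 (exact permutation p = 0.114). Adjusted over the 10 comparisons these exact permutation p-values were all 0.163. The remaining extracellular groups were below lysate by 0.92 (total exRNA), 1.40 (P40) and 0.99 (P100) on the log2 scale, each with an exact permutation p of 0.114 before adjustment. No comparison of the ratio could have passed with 3 libraries in a group, so an unequal change of the members was not shown. S100 had the lower log2 ratio in each shared batch number against P100, P40, total exRNA (3 of 3 each) and lysate (2 of 2). Against P100, total exRNA and lysate the log2 ratios did not overlap, so this direction was fixed for any pairing and is no further evidence. Only against P40 could it have differed.

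Over the 18 libraries, log2 CPM of the members correlated only loosely with each other (Pearson r = 0.32), which is a description, since the points share groups, depth and scaling. Counting error of miR-26b-5p, with 3 to 10 counts in each P100 library, also weakens any correlation with it. How far it lowers the values and ranks given here was not tested. miR-26b-5p ranked 63 of 226 in likeness to miR-26a-5p. The miRNAs most like miR-26a-5p were miR-532-5p (r = 0.81), miR-23b-3p (0.81), miR-371a-5p (0.80), miR-103a-3p (0.79), miR-205-5p (0.78) and miR-203a-3p (0.76). All had their lowest group mean in S100, for example miR-532-5p with 1114 ± 251 CPM in S100 (n = 3) and 5503 ± 993 in lysate (SD, n = 3). As they were picked for likeness to miR-26a-5p, itself lowest in S100, this follows largely from the choice. Those most like miR-26b-5p were miR-148a-3p (r = 0.66), miR-372-3p (0.63), miR-27b-3p (0.62), miR-19b-3p (0.61), miR-429 (0.60) and miR-215-5p (0.58). None of them was in the list for miR-26a-5p. miR-148a-3p, for example, had 1731 ± 161 CPM in S100 (n = 3), 4235 ± 1094 in total exRNA (n = 4) and 1659 ± 481 in lysate (SD, n = 3). In the pellets it had 2870 ± 1374 (P100) and 4037 ± 1569 CPM (P40, SD, n = 4 each). Its P100 mean thus lay above those of S100 and lysate, whereas P100 was the lowest group of miR-26b-5p.

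Other miRNAs known to repress EZH2 did not share 1 pattern. Of 9 miRNAs listed for EZH2, 8 were in the files and 7 were tested. In S100 against lysate 1 was higher and 2 were lower, where 62.1% of all 227 were called, and the median log2 fold change was -0.88 beside -0.04 over all. miR-138-5p was higher (3.13 ± 0.71, SE, edgeR adjusted p = 0.00055), and let-7a-5p (-3.58 ± 0.47), of a family that restrains growth, and its relative miR-98-5p (-2.21 ± 0.67) were lower. In P100 against lysate 0 were higher and 3 lower (let-7a-5p, let-7b-5p and miR-98-5p), with a median of -1.22 beside -0.10 and 37.4% of all miRNAs called. Against total exRNA, 2 were higher in S100 (miR-138-5p, and let-7b-5p at 2.07 ± 0.32) and 2 were lower (let-7a-5p and miR-98-5p), where 63.4% of all were called. Counting both directions, these shares of the list lie near or under those of all miRNAs. In P100 against lysate all calls of the list were lower, and 20.7% of all miRNAs were called lower. By direction the share of the list, of 7 miRNAs, was thus the larger there, through let-7a-5p, let-7b-5p and their relative miR-98-5p alone. In P100 against total exRNA none of these 7 was called in edgeR, with 3 at an unadjusted p below 0.05 and 1 called in DESeq2. let-7a-5p and let-7b-5p were lower than in lysate in P40 (-1.27 ± 0.40 and -1.11 ± 0.32) and in total exRNA (-1.97 ± 0.40 and -1.45 ± 0.32) as well. No other of the 7 was called there, with 26.9% of all miRNAs called in P40 and 35.2% in total exRNA. Of all 227, 30 were called lower in P40 and 37 in total exRNA, so by direction the list again had the larger share. That share rests on let-7a-5p and let-7b-5p alone, and relatives are not independent counts. In S100 against the pellets, let-7a-5p was lower (-2.31 ± 0.44 against P40, -2.36 ± 0.44 against P100), while let-7b-5p (1.73 ± 0.32, 2.02 ± 0.33) and miR-138-5p (3.95 ± 0.76, 3.63 ± 0.73) were higher, in comparisons with 52.9% and 59.9% of all called. let-7c-5p was also higher than in P40 (1.53 ± 0.58). miR-214-3p was lower in S100 than in P100 (-1.78 ± 0.71). Mature let-7 miRNAs are nearly alike in sequence and may have exchanged reads. This list was drawn up with earlier results of these data known, so its counts are a description.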

How the data were processed

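Small RNA libraries (RealSeq-AC kit, 50-base single-end reads) had no molecular identifiers. The authors deposited a file per library with raw counts of mature miRNAs, in which unlisted miRNAs count as 0 here. Cutadapt 1.16, FastQC, Bowtie2 and GRCh38 are named, per the submitters' processing notes. Their order and parameters, any filter, the miRNA release and the treatment of multiply matching reads are not given in the sources used here.

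A library needed at least 100 listed miRNAs, which left 18 of 19 (all but S100 replicate 1). There, a floor of 3 counts is 0.00133% to 0.0299% of counts. R 4.3.3 and edgeR 4.0.16 were used: filterByExpr by group (minimum count 10, total 15), which kept 227 miRNAs with 98.5% to 99.1% of counts, TMM scaling and a robust quasi-likelihood fit of all 5 groups, with a common biological coefficient of variation of 0.419. The SE is the log2 fold change divided by the root of F. Correlations used log2 CPM with prior count 2. The code was tested on simulated data. Ratios were tested by exact two-sided permutation (scipy 1.17.1). Alternatives were DESeq2 1.42.0, other scalings, no filter, fits of only 2 groups, equal depth, a batch block and leaving out each library. No replicate pair agreed within sampling noise (lowest chi-square per degree of freedom 4.66).

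The labels give a batch number, equal to the replicate number, that pairs libraries across groups. Deviations from group means correlated by -0.03 on average between same-numbered libraries (32 pairs, -0.57 to 0.31) and by 0.01 between others (97 pairs). Members and lists were chosen with earlier results of these data known. The miRNAs named are the members, miRNAs of the same hairpins or seed, markers, called or most abundant miRNAs of the EZH2 list, and the 6 most correlated with each member. A second list of miRNAs is not reported here.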

Additional observations from a re-analysis of the deposited data

Results flagged for a closer look

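In P40, replicate 3 had a miR-26a-5p share of 1.38%, far from the other 3 libraries of that group, which had 0.694% to 0.782%. The gap to its nearest neighbour was 0.872 of the group's range, above Dixon's 95% critical value for 4 samples. Of 9 sets of 4 libraries tested in this way (each member and their ratio in P100, P40 and total exRNA), this was the 1 flagged, and chance flags about 1 in 20. P40 replicate 3 was also the deepest library of its group (26096 counts), and its deposited file is named differently from the other 18. Whether it was processed differently is not given in the sources used here, and the part of either in this value was not tested.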

How the results depend on the processing

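The lower miR-26a-5p of S100 and of P100 than of total exRNA was called in all 7 other settings and without any single library, with adjusted p of at most 0.0273 and 0.0302. Limits are the small counts of miR-26b-5p in both pellets, 3 or 4 libraries a group, and a scaling that shifts all miRNAs: relative log expression scaling moved the median log2 fold change of all miRNAs by 0.41 in S100 against lysate and 0.29 against P40, no filter by 0.69 and 0.65, and leaving out any S100 library by 0.22 to 0.40 in the S100 comparisons. Leaving out any lysate library moved that median by 0.31 to 0.32 in S100 against lysate. The causes of the changes below were not tested, except that equal depth leaves fewer counts.

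Relative log expression scaling gave miR-26b-5p -0.12 in P40 against total exRNA and miR-26a-5p -0.64 in S100 against P40 (adjusted p = 0.0848). DESeq2 gave miR-26b-5p 1.158 in total exRNA against lysate and -0.10 in P40 against total exRNA, and miR-26a-5p -0.75 in P40 against total exRNA and -0.65 in S100 against P40. With no filter, miR-26a-5p had -1.07 in P100 and -0.83 in S100 against lysate, -0.29 in S100 against P40 and 0.24 against P100, and miR-26b-5p had -0.18 in P40 and 0.15 in S100 against total exRNA and 0.33 in S100 against P40. Fits of 2 groups gave miR-26b-5p 0.97 in S100 against P100. The replicate block, pairing by batch, gave miR-26b-5p -0.16 in P40 against total exRNA and changed no other sign and no call of the members. At equal depth (10017 counts) miR-26a-5p had -0.69 in P100 against lysate, and miR-26b-5p was not tested. In fits of 2 groups it was not tested in P100 against lysate or P40. The ratio kept its direction with pseudocount 1 and with the block, and its test could not pass after adjustment in any setting.

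Leaving out single libraries gave miR-26a-5p -0.0118 to 0.38 in total exRNA against lysate, -0.99 to -0.54 in P40 against total exRNA, -0.86 to -0.28 in P40 and -1.22 to -0.69 in P100 against lysate, -1.02 to -0.24 in S100 against P40, -0.64 to -0.11 in S100 against P100 and -0.63 to -0.09 in P100 against P40. miR-26b-5p had -1.44 to -0.45 in P100 against P40, 0.34 to 1.19 in P40 against lysate, 0.75 to 1.17 in S100 against lysate, -0.67 to 0.26 in P40 and -0.35 to 0.11 in S100 against total exRNA, -0.56 to 0.69 in S100 against P40 and -0.50 to 0.0944 in P100 against lysate. The log2 ratio difference of P100 against total exRNA was -0.40 to 0.11.

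Calls over all miRNAs numbered 21 (library size only), 18 (DESeq2), 7 (equal depth) and 3 to 12 (single libraries left out) in P100 against P40, beside 11. P40 against total exRNA had 17 (no filter), 14 (fits of 2 groups) and 17 to 42 (single libraries left out), beside 26, and P40 against lysate 27 (fits of 2 groups) and 29 (equal depth), beside 61. Equal depth gave 50 in total exRNA, 41 in P100 and 82 in S100 against lysate (beside 80, 85 and 141), and 93, 78 and 88 in S100 against total exRNA, P40 and P100 (beside 144, 120 and 136). Calls split 43 higher and 37 lower in total exRNA against lysate, 45 and 23 with relative log expression scaling and 47 and 19 by library size. P40 against lysate split 31 and 30, and 47 and 19 by library size. P40 against total exRNA split 13 and 13, and 10 and 17 with relative log expression scaling. P100 against P40 split 5 and 6, 5 and 4 with relative log expression scaling and 5 and 16 by library size.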
